A study of Mus musculus with 50 samples.

Results

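The cytosolic ribosomal protein genes are the genes of the proteins that, with ribosomal RNA, make up the ribosomes of the cytoplasm. Members were the gene names in both deposited expression tables that begin Rpl or Rps followed by a digit, without names holding -ps (pseudogenes) and without the Rps6k kinase genes. The name pattern found 100 genes. Leaving out 6 -ps genes and 10 Rps6k genes gave 84 members among 24414 gene names. They were 73 constitutive genes (43 of the large 60S subunit and 30 of the small 40S subunit), 3 tissue-restricted copies (Rpl10l, Rpl39l and Rpl3l), 4 broadly expressed paralogues (Rpl22l1, Rps27l, Rpl7l1 and Rpl36al), 3 other copies (Rps27rt, Rps4l and Rpl37rt) and Rps19bp1, whose product is not a ribosomal protein. The rule used names alone and no measured value. It therefore kept Rps4l and Rpl37rt, which GENCODE M21 types as transcribed processed pseudogenes.

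RNA was sequenced from mouse TT2 embryonic stem cells lacking H3K9 methyltransferases, the enzymes that methylate lysine 9 of histone H3, in 50 libraries (25 groups of 2). The first table held control, Setdb1-KO, Suv39h1/2-DKO, Suv39h1/2;Setdb1-TKO, G9a-KO, G9a;Setdb1-DKO, G9a;Suv39h1/2-TKO, G9a;Suv39h1/2;Setdb1-QKO (here QKO) and Dux-KO:G9a;Suv39h1/2;Setdb1-QKO (here Dux-KO QKO). The second held the first 8 genotypes again, each with and without doxycycline. By their genotype labels all 32 of its libraries, controls included, lack endogenous Dux, a transcription factor gene of early embryos, and carry a doxycycline-inducible Dux transgene (Tet-on-Dux). The dose label was 0.2 for control and Setdb1-KO and 1 for the other genotypes, with no unit given, so responses to doxycycline were not compared between those sets. Apart from Dux-KO QKO, which has a code of its own, titles give each Setdb1-loss group the line code of the group that keeps Setdb1, with OHT in place of NT, which the labels do not explain. OHT cannot be told apart from Setdb1 loss. Each combination of G9a and Suv39h1/2 loss has 1 line code in a table (Dux-KO QKO aside), so a loss cannot be told apart from other differences between lines. Dux loss in Dux-KO QKO cannot be told apart from a difference between its line and that of QKO either. Labels do not call the replicates separate cultures, so p-values measure the spread between these samples, which may be technical.

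Ribosomal protein mRNAs are among the most abundant mRNAs of growing cells, and each standard protein is normally made from a single constitutively expressed gene. A few of these genes have copies, often made by reverse transcription of the mRNA, that are expressed in certain tissues. Rpl10l and Rpl39l are known from the testis, where they serve germ cells, and Rpl3l is known from heart and skeletal muscle. H3K9 methylation is a mark of silenced chromatin, and the enzymes lost here (Setdb1, Suv39h1 with Suv39h2, and G9a, encoded by Ehmt2) place it.

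Libraries are described by TPM, which is a share of the sequenced transcript pool corrected for gene length. Read depth is not kept by this unit. Genes at 1 TPM or more numbered 11855 to 13274 per library in the first table and 11742 to 12690 in the second. In the second table Ehmt2 was 53.2 to 196 TPM in the 16 libraries that keep G9a and 1.95 to 6.58 in the 16 without it, and Setdb1 was 29.2 to 71.0 against 13.9 to 28.8. In the first, Ehmt2 (82.5 to 104 against 7.38 to 30.2) and Setdb1 (41.4 to 53.2 against 19.8 to 36.5) did not overlap, whereas Suv39h1 (21.3 to 34.0 against 11.1 to 22.9) and Suv39h2 (14.4 to 27.2 against 12.1 to 17.1) did. The 7 embryonic stem cell markers were all present, at summed levels between 3856 and 6095 TPM over both tables. The 8 fibroblast markers summed to 2.7 to 11.5 TPM. In 6 libraries of the second table small nucleolar RNA host (Snhg) genes stood apart from the rest of that table. Their mean log2(TPM + 1) was 4.69 to 5.23 there and 2.63 to 3.71 in the others. Libraries of the first table ran from 4.85 to 5.55. The 6 were replicate 1 of control without doxycycline, replicate 2 of Setdb1-KO and of G9a;Setdb1-DKO with and without it, and replicate 2 of G9a-KO with it.

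The sequences of the copies bear on what the values can tell apart. Between Rpl39l and Rpl39 the coding sequences differ at 23 of 156 bases (85.3% identity), with a longest shared run of 38 bases, so paired 150-nt reads hold differing bases. They are shown because Rpl39l was called in most comparisons between genotypes. Capitals mark the bases that differ (GENCODE M21, GRCm38):
Rpl39: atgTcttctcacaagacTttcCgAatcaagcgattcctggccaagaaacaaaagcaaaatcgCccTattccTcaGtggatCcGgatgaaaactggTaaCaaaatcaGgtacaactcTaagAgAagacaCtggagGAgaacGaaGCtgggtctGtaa
Rpl39l: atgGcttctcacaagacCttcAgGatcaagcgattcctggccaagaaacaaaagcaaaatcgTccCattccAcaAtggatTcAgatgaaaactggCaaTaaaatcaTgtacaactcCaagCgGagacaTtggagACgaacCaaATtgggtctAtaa
Rpl10l differs from Rpl10 at 98 of 645 coding bases (84.8% identity), with a longest shared run of 23. Rpl3l and Rpl3 are 73.3% identical, Rpl36al and Rpl36a 87.9%, Rpl22l1 and Rpl22 66.9%, Rps27l and Rps27 61.0%, and Rpl7l1 and Rpl7 53.0%. For Rps27rt and Rps27 the coding sequences are identical over all 255 bases, and for Rpl37rt and Rpl37 the aligned stretch differs at 1 of 294. The division of reads within these pairs is therefore uncertain. The shared Rps27 and Rps27rt coding sequence is shown because no base of it separates the genes, and so no letter is in capitals:
Rps27rt: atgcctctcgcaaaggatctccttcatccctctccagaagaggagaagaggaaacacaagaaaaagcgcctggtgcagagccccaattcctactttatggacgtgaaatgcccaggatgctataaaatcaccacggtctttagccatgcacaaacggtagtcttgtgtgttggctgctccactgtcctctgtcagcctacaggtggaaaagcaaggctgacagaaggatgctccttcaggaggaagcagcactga

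Rpl10l is a single-exon gene at chr12:66283379-66284401, minus strand, and Rpl39l lies at chr16:10170226-10174911, plus strand, with up to 3 exons (GENCODE M21, GRCm38). Their partners Rpl10 (chrX:74270812-74273135) and Rpl39 (chrX:37082520-37085402) are both on the X chromosome. In RefSeq windows (GRCm38.p6) reaching from 250 bases before the start to 50 after it, Rpl10l has 13 CpG dinucleotides, Rpl39l 17, Rpl10 17 and Rpl39 17. Rpl3l has windows with 2 and 3. Taking the window with the most CpG for each gene, the median is 21 for the constitutive genes and 8 for all genes. The 250 bases before the start of Rpl10l (chr12:66284402-66284651, minus strand) and Rpl39l (chr16:10169978-10170227, plus strand) follow because these genes carried most of the changes, with CpG in capitals:
Rpl10l: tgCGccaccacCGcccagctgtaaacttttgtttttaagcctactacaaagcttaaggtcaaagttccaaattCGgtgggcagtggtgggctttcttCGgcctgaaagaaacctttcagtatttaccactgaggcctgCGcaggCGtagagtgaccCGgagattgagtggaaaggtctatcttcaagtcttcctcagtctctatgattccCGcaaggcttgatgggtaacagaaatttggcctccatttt
Rpl39l: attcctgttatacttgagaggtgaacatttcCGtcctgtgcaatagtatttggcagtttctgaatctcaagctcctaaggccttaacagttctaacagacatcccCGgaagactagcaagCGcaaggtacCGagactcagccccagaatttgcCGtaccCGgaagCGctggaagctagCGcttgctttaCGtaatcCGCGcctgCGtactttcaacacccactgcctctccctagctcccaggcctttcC
A start at C followed by 4 pyrimidines, read on the gene's strand, is the hallmark of mRNAs whose translation follows growth signals. It was found for 12 of 54 constitutive genes with a RefSeq window (22.2%), for 813 of all 27025 genes (3.01%) and for none of the 3 tissue-restricted copies. With the pattern allowed near the annotated start, it was found for 26 of the 54 (48%) and 5718 of all genes (21.2%). The 3 copies again had none. A start base read from annotation is a description of that annotation.

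The constitutive genes together made up 19.2 to 24.8% of all TPM in the 18 libraries of the first table (median 20.5%) and 18.6 to 25.3% in the 32 of the second (median 21.8%). Rps12 was the highest, with means of 7027 TPM in the first table and 7377 in the second, and Rps27 the lowest, with 12.9 and 8.87. Next to these extremes were Rpl12, a stalk-base protein of the large subunit (5115 TPM in the first table), and Rps15a (164 and 184 TPM). The low Rps27 level stands beside 2841 to 4239 TPM for its identical copy Rps27rt in the first table and 3146 to 5106 in the second. Rps27rt lies inside Osbpl10, on the opposite strand, at chr9:114982366-114982739.

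**Figure D1:**
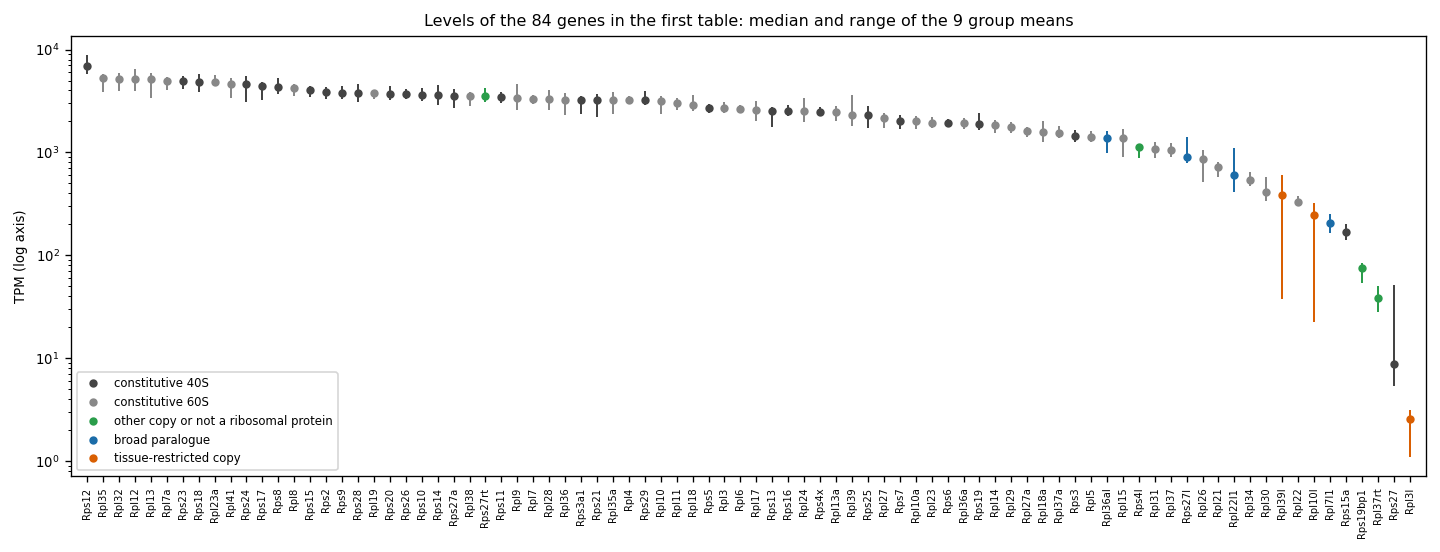
Levels of the 84 genes in the first table on a log TPM axis: points are medians and lines the ranges of the 9 group means, coloured by class. Most constitutive genes form a flat high band, Rps12 at the top, while Rpl10l and Rpl39l span the widest ranges among copies and Rpl3l sits lowest.

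Over group means the log2 level of a constitutive gene ranged by a median of 0.41 in the first table and 0.43 in the second. After Rps27 (2.98 and 3.04), Rpl26 and Rpl39 spread most in the first table. Rpl26 ran from 527 TPM in Dux-KO QKO to 1039 in Setdb1-KO, and Rpl39 from 1844 in control to 3528 in QKO. In the second table Rpl30 (1.49) and Rpl26 (0.96) followed Rps27. Rpl30 ran from 251 TPM in control without doxycycline to 709 in QKO with it.

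The spread of Rps27 came from single libraries. It was 4.96 and 95.4 TPM in the QKO replicates of the first table, 66.5 and 3.09 in Suv39h1/2-DKO without doxycycline, and 64.7 and 1.37 in QKO with it. Control values were 8.04 and 8.58 in the first table. Each of the 3 high values sat beside a low one from the same group, and reads shared with Rps27rt make the split uncertain.

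Whether loss of an H3K9 methyltransferase moved these genes was tested with limma on log2(TPM + 1) over all 13862 genes measured in the first table and 13817 in the second, with Benjamini-Hochberg adjustment. All 84 members passed the filter on low values in both. A gene was called at adjusted p below 0.05 and a log2 fold change of at least 1 in size. A fold on this scale understates the change of low genes. In bulk RNA, fewer cells of a type and less RNA per cell cannot be told apart.

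Rpl10l, the copy of Rpl10, a protein that joins the large subunit late in its assembly, was high wherever G9a was lost. In the first table its TPM was 25.4 and 26.1 in control and 21.5 and 24.7 in Suv39h1/2-DKO. It was 73.9 and 65.6 in Setdb1-KO and 66.0 and 68.0 in Suv39h1/2;Setdb1-TKO. It was 248 and 239 in G9a-KO, 323 and 286 in G9a;Setdb1-DKO, and 261 and 264 in G9a;Suv39h1/2-TKO. QKO had 285 and 286, and Dux-KO QKO 307 and 322. The groups therefore stood on 3 steps that did not overlap: control with Suv39h1/2-DKO, Setdb1-KO with Suv39h1/2;Setdb1-TKO, and all groups without G9a. Against control the log2 fold change was 3.19 (SE 0.09) in G9a-KO and 3.51 in G9a;Setdb1-DKO (limma adjusted p 3.96e-12 and 6.60e-13). It was 1.40 (SE 0.09, limma adjusted p 4.64e-08) in Setdb1-KO and 1.35 in Suv39h1/2;Setdb1-TKO, and -0.15 in Suv39h1/2-DKO (limma adjusted p 0.64). Among groups without G9a the levels were close: adding Suv39h1/2 loss to G9a loss gave 0.11 (limma adjusted p 0.57) and Dux-KO QKO differed from QKO by 0.14 (limma adjusted p 0.26).

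In the first table the effect of Setdb1 loss on Rpl10l, on the log2 scale, depended on whether G9a was present. Setdb1 loss gave a log2 fold change of 1.50 within Suv39h1/2-DKO (limma adjusted p 2.06e-08), 0.32 within G9a-KO (limma adjusted p 0.023) and 0.12 within G9a;Suv39h1/2-TKO (limma adjusted p 0.33). The G9a by Setdb1 interaction, which asks whether the losses add on the log2 scale, was -1.08 (SE 0.13, limma adjusted p 0.000147).

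The G9a step was again present in the second table. Without doxycycline Rpl10l was 18.4 and 16.4 TPM in control, 238 and 331 in G9a-KO, 252 and 257 in G9a;Setdb1-DKO, 315 and 247 in G9a;Suv39h1/2-TKO and 291 and 268 in QKO. Every library without G9a lay above every library with it. Log2 fold changes of these groups against control were between 3.80 and 3.94 (limma adjusted p from 3.11e-11 to 7.08e-11). Setdb1-KO, at 28.9 and 29.5 TPM, was 0.72 above control (SE 0.21, limma adjusted p 0.0502) and was not called. The middle step of the first table was thus smaller here in Setdb1-KO, and Suv39h1/2;Setdb1-TKO did not stand apart. Its Rpl10l was 0.61 and 0.81% of the summed TPM of Rpl10l and Rpl10. Suv39h1/2-DKO had 0.69 and 0.56% and control 0.64 and 0.44%, so these groups overlapped. Rpl10l was not called in Suv39h1/2;Setdb1-TKO. The tables were normalised separately, and the difference between them was not tested.

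Rpl10 itself stayed between group means of 2415 and 3455 TPM in the first table. As a share of the summed TPM of Rpl10l and Rpl10, Rpl10l made up 0.777% (SD 0.037, n = 2) in control, 2.14% in Setdb1-KO and 6.83% (SD 0.60) in G9a-KO, while QKO had 9.56% and Dux-KO QKO reached 11.5% (SD 0.30). The share was 0.542% in control and 7.26% in G9a-KO of the second table without doxycycline. The copy remained the minor one in every library.

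Rpl39l, the copy of a short protein that lines the ribosome's exit tunnel, was highest where Setdb1 was lost. Its TPM in the first table was 88.5 and 79.5 in control, 446 and 345 in Setdb1-KO, and 383 and 422 in Suv39h1/2;Setdb1-TKO. It was 449 and 322 in G9a;Setdb1-DKO, 498 and 677 in QKO and 494 and 518 in Dux-KO QKO. Groups that keep Setdb1 were lower: 40.7 and 36.9 in Suv39h1/2-DKO, 189 and 176 in G9a-KO and 83.5 and 81.9 in G9a;Suv39h1/2-TKO. No library without Setdb1 overlapped one with it, and Suv39h1/2-DKO lay below all others. Log2 fold changes against control were 2.21 (SE 0.16, limma adjusted p 1.36e-07) in Setdb1-KO, 1.11 (limma adjusted p 0.000101) in G9a-KO and 2.78 (limma adjusted p 3.82e-09) in QKO. In Suv39h1/2-DKO Rpl39l fell by 1.10 on the log2 scale (limma adjusted p 0.00198), and in G9a;Suv39h1/2-TKO it was -0.02 (limma adjusted p 0.95).

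Where Setdb1 was kept, loss of Suv39h1/2 lowered Rpl39l, and loss of Setdb1 raised it in each pair of groups tested. Among groups without Setdb1 in the first table, those that also lacked Suv39h1/2 overlapped or lay above those that kept it, by the levels given. Suv39h1/2 loss within G9a-KO gave -1.13 (limma adjusted p 0.000452). Setdb1 loss gave 3.34 within Suv39h1/2-DKO, 2.80 within G9a;Suv39h1/2-TKO and 1.05 within G9a-KO (limma adjusted p 1.13e-09, 7.37e-09 and 0.000284). The last value was 0.82 (limma adjusted p 0.00446), under the size limit, without replicate 1 of G9a;Setdb1-DKO. The G9a by Setdb1 interaction was -1.16 (SE 0.23, limma adjusted p 0.00581). The Suv39h1/2 by Setdb1 interaction was 1.13 (limma adjusted p 0.085) and did not pass, and the G9a by Suv39h1/2 interaction was -0.04 (limma adjusted p 0.97).

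Rpl39l in the second table, without doxycycline, was 127 and 152 TPM in control, 385 and 321 in Setdb1-KO and 35.5 and 43.2 in Suv39h1/2-DKO. It was 245 and 304 in Suv39h1/2;Setdb1-TKO, 234 and 261 in G9a-KO, 512 and 463 in G9a;Setdb1-DKO, 144 and 146 in G9a;Suv39h1/2-TKO and 498 and 460 in QKO. Suv39h1/2-DKO was again lowest, and G9a-KO overlapped Suv39h1/2;Setdb1-TKO. Unlike in the first table, Suv39h1/2;Setdb1-TKO lay below Setdb1-KO, and QKO overlapped G9a;Setdb1-DKO. Interactions between losses were not tested in this table. The fall in Suv39h1/2-DKO was by 1.80 on the log2 scale (SE 0.17, limma adjusted p 4.98e-06), and the rise was 1.33 in Setdb1-KO and 1.78 in QKO (limma adjusted p 6.36e-05 and 1.73e-07). Suv39h1/2;Setdb1-TKO, at 0.97 (limma adjusted p 0.0011), passed the p threshold but not the size limit.

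Of the summed TPM of Rpl39l and Rpl39, Rpl39l made up 4.36% (SD 0.44, n = 2) in control of the first table and 1.58% (SD 0.18) in Suv39h1/2-DKO. It made up 13.8% (SD 2.15) in Setdb1-KO and 19.3% (SD 0.999) in Dux-KO QKO. In the second table its share without doxycycline reached 20.3% (SD 2.62) in G9a;Setdb1-DKO. Rpl39l therefore made up a larger share of its pair than Rpl10l did of its own in each of these groups. The reverse held in G9a;Suv39h1/2-TKO of the first table, with 7.69% for Rpl10l and 3.59% for Rpl39l. In that genotype of the second table without doxycycline the mean shares were 7.17% and 6.66%, and the replicates overlapped.

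**Figure D2:**
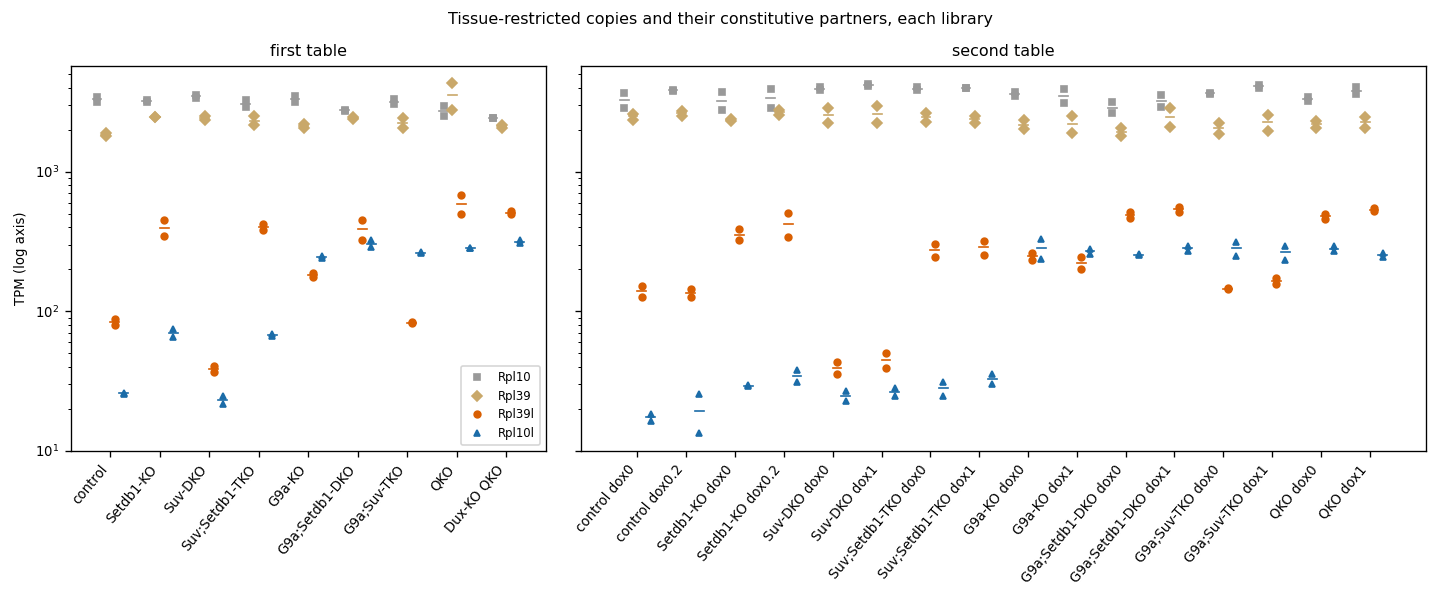
TPM on a log axis of Rpl10l, Rpl39l and their constitutive partners Rpl10 and Rpl39 in each library of both tables (short lines are group means, Suv stands for Suv39h1/2). Rpl10l steps up at G9a-KO and stays up, Rpl39l is lowest in Suv39h1/2-DKO (36.9 and 40.7 TPM in the first table), and the partners stay high throughout.

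Rpl3l, the striated muscle copy of Rpl3, was near the detection limit. Control libraries had 3.08 and 2.98 TPM in the first table and 4.24 and 3.22 in the second without doxycycline. G9a-KO had 0.932 and 1.3 in the first and 0.613 and 0.774 in the second. These G9a-KO libraries lay below the controls of their table. Rpl3l fell by 1.47 on the log2 scale in G9a-KO of the second table (SE 0.30, limma adjusted p 0.00124), and by 1.07 in G9a;Setdb1-DKO (1.11 and 1.39 TPM, limma adjusted p 0.00878). In the first table G9a-KO was at -0.93 (limma adjusted p 0.0052), under the size limit. The G9a;Setdb1-DKO call did not hold under 3 of 9 alternative settings. The 8 muscle markers summed to 9.04 to 9.79 TPM in control and 6.87 to 7.12 in G9a-KO of the first table. In the second, without doxycycline, they summed to 12.4 to 16.7 in control, 8.83 to 9.12 in G9a-KO and 11.3 to 11.9 in G9a;Setdb1-DKO. The part of other muscle transcripts in the Rpl3l value was not tested.

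Of the broad paralogues Rpl22l1, which binds RNA like Rpl22, was called, in QKO against control and in Dux-KO QKO against QKO. It was 464 and 514 TPM in control, 852 and 1310 in QKO and 453 and 511 in Dux-KO QKO. Both QKO libraries lay above the others of these groups but differed between themselves. The log2 fold change was 1.11 in QKO (SE 0.19, limma adjusted p 0.000184) and -1.13 in Dux-KO QKO against QKO (limma adjusted p 0.000327). Without QKO replicate 2 these were 0.80 and -0.83 (limma adjusted p 0.00421 and 0.00745), both under the size limit. Across the second table, where endogenous Dux is absent throughout, Rpl22l1 was 661 and 820 TPM in control and 939 and 744 in QKO without doxycycline, which overlap. Of the summed TPM of Rpl22l1 and Rpl22 it made up 63.6% in control without doxycycline and 67.5% with it. In QKO these shares were 70.2% and 70.0%. The part of Dux in the Rpl22l1 level was not tested.

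Rps27l was 739 and 872 TPM in control and 1013 and 1732 in QKO (0.72, limma adjusted p 0.005), also with the higher value in QKO replicate 2. Rpl7l1, a nucleolar relative of Rpl7, was 0.31 higher in Suv39h1/2;Setdb1-TKO (limma adjusted p 0.0057) and fell by 0.23 on the log2 scale in G9a-KO (limma adjusted p 0.031, but 0.086 after scaling by median ratios). Rpl36al was 0.32 higher in Setdb1-KO (limma adjusted p 0.021) and at -0.37 in Dux-KO QKO against QKO (limma adjusted p 0.0074). None of these 3 was called in any comparison.

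Counting all members, 2 were called in Setdb1-KO against control, against 6.28% of all genes, and 1 in Suv39h1/2-DKO (0.541% of all genes). Suv39h1/2;Setdb1-TKO had 2 (6.99%), G9a-KO 2 (9.26%), G9a;Setdb1-DKO 2 (14.4%), G9a;Suv39h1/2-TKO 1 (6.72%), QKO 3 (15.6%) and Dux-KO QKO against QKO 1 (6.54%). Setdb1 loss called 2 within Suv39h1/2-DKO (6.41% of all genes), 1 within G9a-KO (5.43%) and 1 within G9a;Suv39h1/2-TKO (9.1%), and Suv39h1/2 loss within G9a-KO called 1 (1.61%). The G9a by Setdb1 interaction called 2 (4.18%), and the interactions of G9a with Suv39h1/2 and of Suv39h1/2 with Setdb1 called 0 (2.02% and 0.166%). In the second table without doxycycline the counts were 1 in Setdb1-KO (2.52%), 1 in Suv39h1/2-DKO (1.56%), 0 in Suv39h1/2;Setdb1-TKO (3.49%), 2 in G9a-KO (7.98%), 3 in G9a;Setdb1-DKO (13.2%), 1 in G9a;Suv39h1/2-TKO (6.61%) and 3 in QKO (14%). As shares of 84 these counts were below the background except in Suv39h1/2-DKO of the first table. The genes called were Rpl10l, Rpl39l, Rpl3l, Rpl22l1 and, in 1 comparison, Rpl30.

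**Figure D3:**
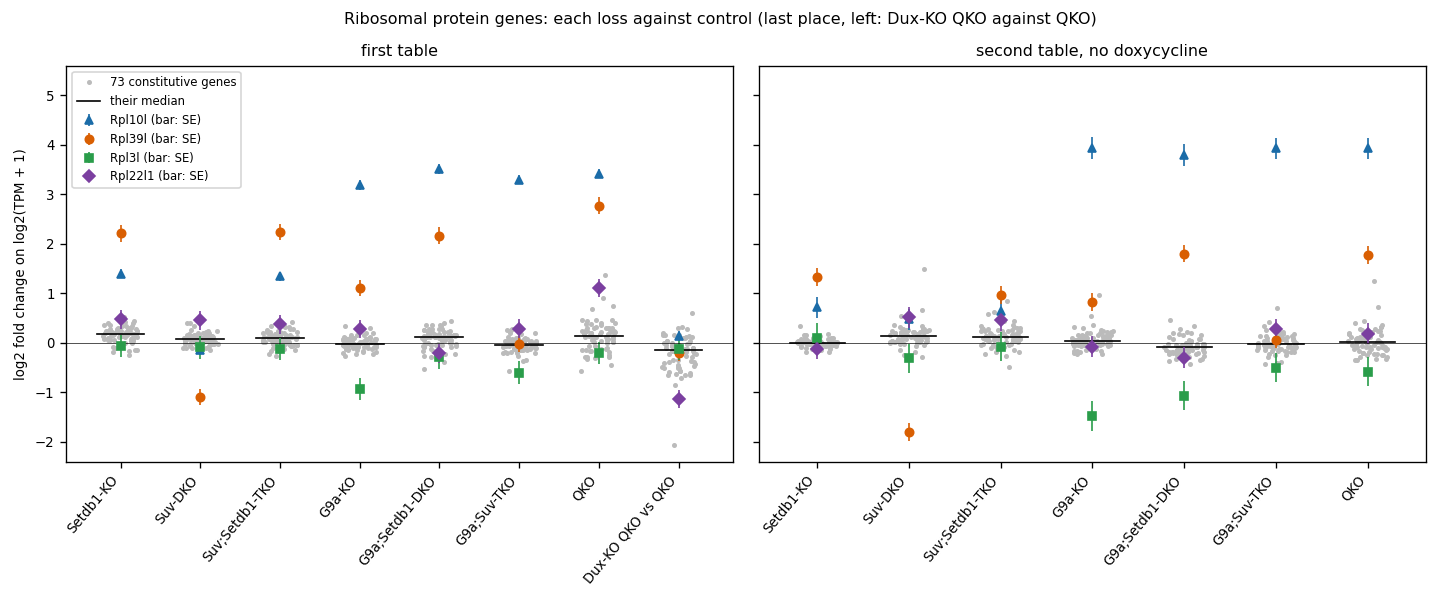
Log2 fold changes on log2(TPM + 1) of the 73 constitutive genes (grey points, black line at their median) and of 4 copies (coloured, bars are SE) for each loss against control, with Dux-KO QKO against QKO at the last place of the first table. Rpl10l (3.19 to 3.51 without G9a) and Rpl39l lie far from the grey points, whose medians run from -0.14 to 0.19 in the first table.

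The constitutive genes moved little, and no constitutive gene was called in the first table. Their median log2 fold change there was 0.19 in Setdb1-KO (all genes -0.12), 0.14 in QKO (all genes -0.05), 0.12 in G9a;Setdb1-DKO (all genes -0.04) and -0.14 in Dux-KO QKO against QKO (all genes 0.22). At adjusted p below 0.05 and any size, 14 of 73 were higher and 8 lower in QKO, where 25.3% of all genes were higher and 28% lower. Setdb1-KO had 7 higher and 1 lower (12.5% and 21.6%). In Dux-KO QKO against QKO 23 were lower and 3 higher (6.95% and 34.5% of all genes). In G9a;Suv39h1/2-TKO 3 were lower and 0 higher (12.7% and 14.4%), and in Suv39h1/2-DKO none passed (1.2% of all genes were lower and 0.981% higher), with 2 at an unadjusted p under 0.05, against 11.2% of all genes.

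These counts rest on few libraries. Shares of all genes were not counted with a library left out or after scaling, so the counts that follow have no background beside them. The number higher in Setdb1-KO was 23 without its replicate 2, and 1 or 2 without its replicate 1 or either control. The number higher in QKO was 23 without QKO replicate 1, 3 without QKO replicate 2, and 9 and 6 without control replicates 1 and 2. The number lower in Dux-KO QKO against QKO was 10 without QKO replicate 2 and 11 without Dux-KO QKO replicate 1. When TPM were first scaled between libraries by median ratios, 30 were lower and 0 higher in Dux-KO QKO against QKO. In QKO against control 10 were higher and 1 lower. The constitutive medians were then -0.38 and 0.23, and the medians of all genes 0.02 and 0.03.

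Among constitutive genes past the p threshold in QKO, Rpl39 (0.90, limma adjusted p 0.000173), Rpl9 (0.75) and Rpl24 (0.68) were the most raised and Rpl28 (-0.58, limma adjusted p 4.57e-05) the most lowered. All sit in the large subunit. Rpl9, Rpl24 and Rpl28 were picked out after their values were seen. Rpl28 was 3788 and 4082 TPM in control, 2793 and 2485 in QKO and 3272 and 3275 in Dux-KO QKO, so the 3 groups did not overlap. In Dux-KO QKO against QKO the most lowered past the p threshold were Rpl26 (-0.86, limma adjusted p 0.026) and Rpl39 (-0.71, limma adjusted p 0.0021). Rps27 had a lower value (-2.05) that did not pass. Rpl26 was at 694 and 1205 TPM in QKO and 376 and 677 in Dux-KO QKO. The nearest libraries of these groups, at 694 and 677 TPM, lay closer together than the replicates of either group. The highest gene, Rps12, was 6017 and 5827 TPM in control and 9811 and 7359 in Setdb1-KO (0.52, limma adjusted p 0.015).

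The summed level gave the same picture per library. In the first table it was 20.1% of TPM in control (SD 0.10, n = 2) and 23.0% in Setdb1-KO (SD 2.57). It was 21.6% in G9a;Setdb1-DKO (SD 2.65), 22.3% in QKO (SD 1.80), and Dux-KO QKO had 19.4% (SD 0.17). The groups with the highest means also had the widest gaps between replicates, such as 24.8% and 21.2% in Setdb1-KO. With 2 libraries a group, an exact test of 2 groups cannot go below p = 0.333.

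**Figure D4:**
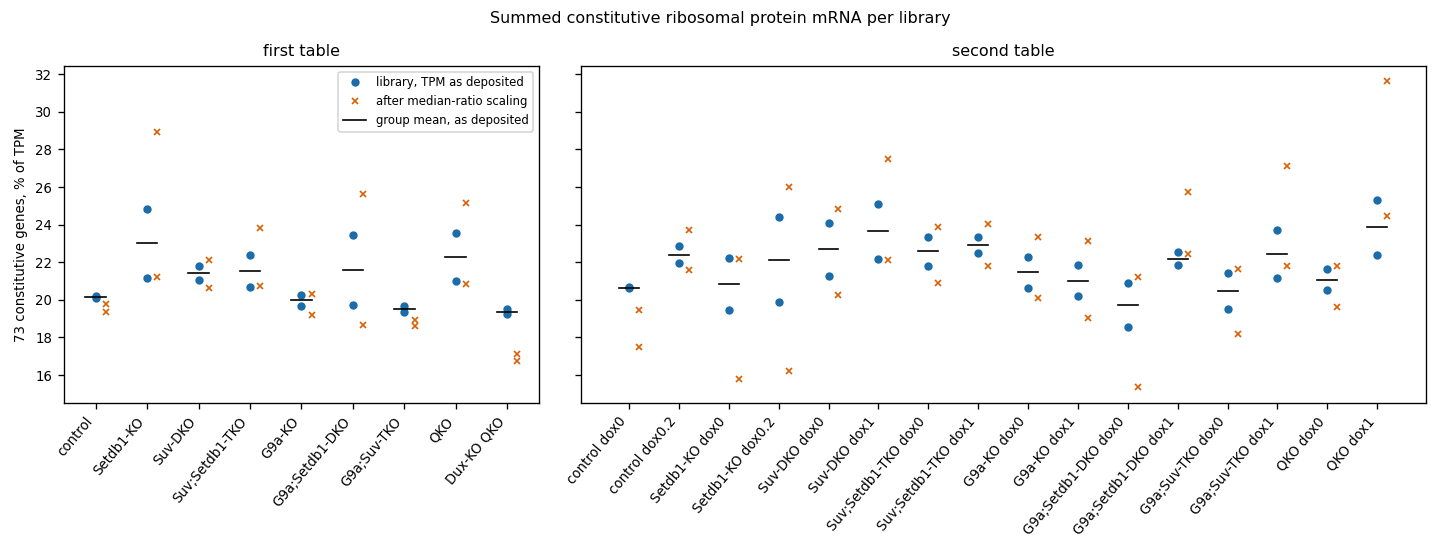
Summed TPM of the 73 constitutive genes as a percent of all TPM in each library, as deposited (dots, lines are group means) and after scaling between libraries by median ratios (crosses). Control and Dux-KO QKO libraries of the first table lie close together (20.1 and 19.4% on average), while the Setdb1-KO, G9a;Setdb1-DKO and QKO pairs are wide apart.

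Doxycycline, which induces the Dux transgene, called no member in any of the 8 genotypes of the second table. Of all genes, limma called 0.181% in control, 0.166% in Setdb1-KO, 0.449% in Suv39h1/2-DKO, 0.246% in Suv39h1/2;Setdb1-TKO, 0.955% in G9a-KO, 1.05% in G9a;Setdb1-DKO, 0.456% in G9a;Suv39h1/2-TKO and 0.413% in QKO. At an unadjusted p under 0.05 the constitutive genes numbered 8 in G9a;Setdb1-DKO (20.5% of all genes), 8 in QKO (16.1%), 2 in G9a-KO (8.71%) and 1 in Suv39h1/2-DKO (6.25%). They numbered 0 in control, Setdb1-KO, Suv39h1/2;Setdb1-TKO and G9a;Suv39h1/2-TKO (6.04, 2.04, 1.59 and 8.68%). The median change of the constitutive genes ran from -0.05 in G9a-KO to 0.17 in G9a;Setdb1-DKO and in QKO, where the medians of all genes were 0.00, -0.22 and -0.21. Constitutive genes with a positive value numbered 67 of 73 in control, 62 in Setdb1-KO, 69 in Suv39h1/2-DKO and 49 in Suv39h1/2;Setdb1-TKO. They numbered 29 in G9a-KO, 68 in G9a;Setdb1-DKO, 72 in G9a;Suv39h1/2-TKO and 71 in QKO. None passed the adjusted p, and the share of all genes with a positive value was not counted. Scaling by median ratios brought the median of all genes to within 0.02 of 0 and moved that of the constitutive genes to 0.42 in QKO. The sum rose from 20.6% to 22.4% of TPM in control and from 21.1% to 23.9% in QKO as group means, with no test. Rpl10l (13.3 to 295 TPM with doxycycline) and Rpl39l (39.2 to 561) kept to the genotype, and their responses did not pass the test.

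A handful of members kept a pattern across genotypes in 1 or both tables. They were chosen after their values were seen, apart from Rpl30, which was called. Rpl24, a bridge protein between the subunits, was 1935 and 2131 TPM in control of the first table and 2936 and 3605 in QKO. In the second it was 2149 and 2215 in control and 3409 and 3825 in QKO without doxycycline. QKO was above control in each, by 0.68 (limma adjusted p 6.48e-05) and 0.73 (limma adjusted p 1.19e-05). It was higher at any size in 5 of 7 losses of the first table, and in 5 of 7 of the second. After scaling by median ratios these were 4 and 1.

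Rpl15, a protein of the large subunit, had its lowest mean where G9a and Suv39h1/2 were both lost and Setdb1 kept. It was 1409 and 1331 TPM in control of the first table and 924 and 928 in G9a;Suv39h1/2-TKO (-0.56, limma adjusted p 0.000815). In the second it was 1471 and 1634 in control and 1213 and 1126 in G9a;Suv39h1/2-TKO (-0.41, limma adjusted p 0.033). These groups did not overlap in either table. After scaling by median ratios the second value was -0.29 (limma adjusted p 0.46) and did not pass. Adding Setdb1 loss raised it by 0.44 in the first table (limma adjusted p 0.0036).

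Rps4l, a copy of Rps4x typed as a processed pseudogene, with 79.8% identity over the aligned transcript, differed between tables. In the second it was 1408 and 1298 TPM in control, 676 and 792 in Suv39h1/2-DKO and 663 and 772 in Suv39h1/2;Setdb1-TKO. Both of these groups lay below all other genotypes of that table, with and without doxycycline. The log2 fold changes were -0.88 and -0.92 (SE 0.12, limma adjusted p 0.00014 and 3.32e-05), under the size limit. In the first table Suv39h1/2-DKO was -0.19 from control (limma adjusted p 0.79). The lines of the tables carry different codes, and what differs between them was not tested.

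Rpl30, a large-subunit protein, was the constitutive gene called. In the second table it was 198 and 303 TPM in control without doxycycline and 539 and 633 in QKO (1.25, SE 0.19, limma adjusted p 3.43e-05). It was also higher in G9a-KO (438 and 531, limma adjusted p 0.000887). In the first table, QKO was lower than control, at 377 and 347 against 456 and 435 TPM (-0.30, limma adjusted p 0.027), which after scaling was -0.22 (limma adjusted p 0.13) and did not pass. The second-table value was 0.94, under the size limit, without the control library at 198 TPM. That library is among the 6 of high Snhg level, and no other of them is in this comparison. Leaving out all 6 therefore gave the same value.

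**Figure D5:**
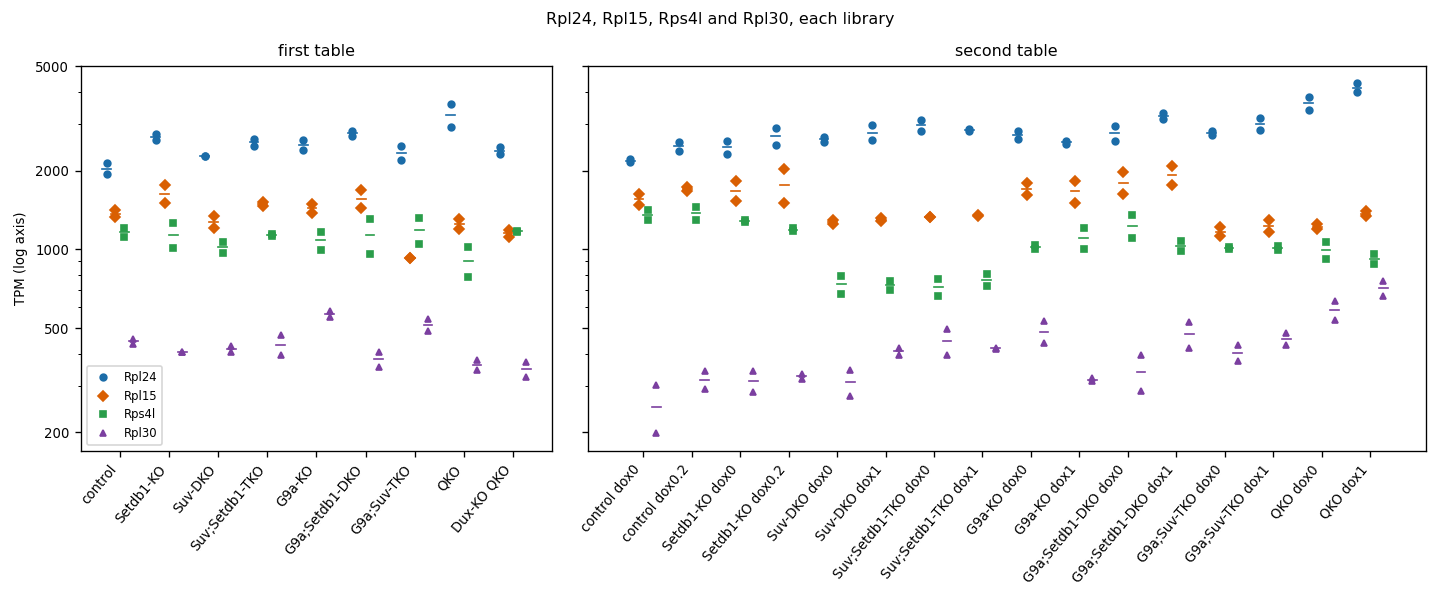
TPM on a log axis of Rpl24, Rpl15, Rps4l and Rpl30 in each library (short lines are group means, Suv stands for Suv39h1/2). Rps4l is low in the Suv39h1/2-DKO and Suv39h1/2;Setdb1-TKO groups of the second table, Rpl15 in G9a;Suv39h1/2-TKO of both, and Rpl30 starts from a low control in the second table.

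Of 5 subunit genes outside the name rule (Rplp0, Rplp1 and Rplp2 of the stalk, Rpsa and Fau), 0 were called in any comparison. In the first table, QKO had 2 of 5 lower at any size, Fau (-0.57, limma adjusted p 0.0067) and Rplp0 (-0.24, limma adjusted p 0.043), where 28% of all genes were lower, and the median of the 5 was -0.11. Of 33 tested ribosome biogenesis genes, which process ribosomal RNA and assemble subunits, 2 were called lower in QKO of the first table. There, where 15.6% of all genes were called, 17 were lower and 2 higher at any size (28% and 25.3% of all genes, medians -0.33 and -0.05), while the constitutive median was 0.14. Without doxycycline, QKO of the other table had 7 higher and 0 lower (median 0.26, all genes -0.11), where 15% of all genes were higher and 19.3% lower. Of 16 translation factors 0 were called in any comparison, and in the first table, QKO had 7 lower and 1 higher at any size, against the same 28% and 25.3% of all genes.

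Lists of other cell identities moved with the copies in part. Of 13 primitive endoderm markers, 13 were called higher in G9a-KO of the first table (median 2.37), and their summed level was 446 to 451 TPM in control and 1999 to 2368 in G9a-KO. In QKO of the second table without doxycycline the same sum was 538 to 672 TPM, below its control at 946 to 1054, while Rpl10l was 291 and 268 TPM. Of 11 germline genes, 10 were called higher in Setdb1-KO (median 2.71), 0 in Suv39h1/2-DKO and 11 in QKO. Their sum was 51.0 to 57.6 TPM in control, 415 to 481 in Setdb1-KO and 94.0 to 96.3 in G9a-KO. No marker of either list was at 0 in these groups. The part of these cell identities in the Rpl10l and Rpl39l levels was not tested.

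Over the 9 group means of the first table the genes most like Rpl10l by Pearson correlation of log2(TPM + 1) were Gm21283 (r = 0.989), Klhl13 (0.987), Msrb2 (0.986), 4930486L24Rik (0.985) and Ldah (0.985). Over the 16 group means of the second table their r was 0.949, 0.971, 0.918, 0.988 and 0.780. Klhl13, an adaptor of a ubiquitin ligase, had a mean of 2.93 TPM in control and 45.2 in G9a-KO. Rpl39l and Rpl10l had r = 0.583 in the first table and 0.475 in the second. The group means share genotypes and lines, so r is only a description. The nearest protein-coding gene to Rpl39l was Atf7ip2, 17801 bp away, at 12.8 TPM in control, 18.1 in Setdb1-KO and 39.8 in QKO as group means. That of Rpl10l was Mdga2, 181659 bp away, with group means up to 0.7 TPM in the first table.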

How the data were processed

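RNA libraries (AllPrep RNA, TruSeq stranded mRNA, 150-nt paired reads, per the labels' protocols) were processed to mm10 with RSEM 1.3.1, STAR 2.7.10b, SAMtools 1.9 and Bowtie2 2.3.4.1, per the submitters' processing notes. The sources used here do not give the annotation or the handling of reads shared by copies. The authors deposited gene TPM separately for each experiment, so depth is unknown and its precision cannot be given. TPM were used as log2(TPM + 1) for genes that reached 1 TPM in 2 or more libraries, with a fit for each table on its own, all its groups in a limma 3.58.1 model with a variance trend (R 4.3.3, data.table version 1.17.8; 9 and 16 residual degrees of freedom), tested on simulated data. TetOnDux and MERVL-sfGFP were left out. Tables and figures used Python 3.11.15, pandas 2.3.3 and matplotlib 3.10.9, and sequences were aligned with Biopython 1.88.

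Groups and replicate numbers came from the sample titles and genotype labels. The members and lists were chosen with earlier results of these data known. Named were all copies with their partners, the 2 highest and 2 lowest constitutive genes by mean TPM, the 3 widest in spread in each, any constitutive gene called, subunits outside the name rule (1 gene is not reported here), and the 5 genes most like Rpl10l. Positions were from GENCODE M21 and promoter windows from RefSeq. The alternatives were a pseudocount of 0.1, no filter, scaling by median ratios, a replicate block, each library left out, and the second table without the 6 libraries whose mean log2(TPM + 1) over Snhg genes was above 4. For the sums, -ps genes were added.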

Additional observations from a re-analysis of the deposited data

Results flagged for a closer look

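In the first table, a test of the difference itself showed unequal effects of Setdb1 loss on the log2 scale with and without G9a for both copies. This interaction was not tested in the second table. For Rpl10l the G9a by Setdb1 interaction was -1.08 (limma adjusted p 0.000147, first table). Setdb1 loss took Rpl10l from a mean of 25.8 to 69.8 TPM where G9a was present and from 244 to 305 TPM where it was absent. For Rpl39l the interaction was -1.16 (limma adjusted p 0.00581), with means of 84.0 and 395 TPM with G9a and 183 and 385 TPM without it. Under the 4 alternative settings run for the interactions the values were -1.19 to -1.08 for Rpl10l and -1.27 to -1.16 for Rpl39l. Interactions under the size limit that passed the adjusted p were -0.96 for Rpl22l1 (G9a by Setdb1, limma adjusted p 0.032) and -0.69 for Rps24 (G9a by Suv39h1/2, limma adjusted p 0.034).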

How the results depend on the processing

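A count was taken as unmoved within 1.5 times the reported one, and a median or sum within 1 SD between replicates. Shares of all genes were not counted under the alternative settings. Among alternative values of counts, medians, sums and the interactions of Rpl10l and Rpl39l, 415 were unmoved or kept the call and 41 moved. Among those of single called genes 243 kept the call, 8 fell under its limits and 0 changed sign. Scaling by median ratios moved the median of the constitutive genes from 0.19 to 0.34 in Setdb1-KO and from -0.14 to -0.38 in Dux-KO QKO against QKO. Without doxycycline it moved it from 0.13 to 0.28 in Suv39h1/2-DKO, 0.13 to 0.27 in Suv39h1/2;Setdb1-TKO, 0.05 to 0.22 in G9a-KO, -0.02 to 0.10 in G9a;Suv39h1/2-TKO and 0.01 to 0.15 in QKO. For doxycycline the moves were 0.11 to 0.29 in control, 0.17 to 0.41 in G9a;Setdb1-DKO, 0.12 to 0.28 in G9a;Suv39h1/2-TKO and 0.17 to 0.42 in QKO. With the same scaling, members called went from 1 to 2 in Dux-KO QKO against QKO and, without doxycycline, from 0 to 1 in Suv39h1/2;Setdb1-TKO and from 2 to 4 in G9a-KO. The sum became 19.6% in control, 18.8% in G9a;Suv39h1/2-TKO and 16.9% in Dux-KO QKO of the first table. In the second it became 18.5% in control without doxycycline and 24.1, 24.4 and 28.1% in G9a;Setdb1-DKO, G9a;Suv39h1/2-TKO and QKO with it. With -ps genes added the sum was 20.5, 19.8 and 19.7% in control, G9a;Suv39h1/2-TKO and Dux-KO QKO, and 20.97% in control without doxycycline. Without the high-Snhg libraries 1 member in place of 0 was called for doxycycline in G9a;Setdb1-DKO. The cause of these moves was not tested.

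Leaving out 1 library at a time, the constitutive median ran from -0.052 to 0.26 in G9a;Setdb1-DKO and, without doxycycline, from 0.0029 to 0.10 in G9a-KO and -0.037 to 0.044 in QKO. Members called ran from 2 to 6 in QKO (6 without QKO replicate 1), 0 to 4 in Dux-KO QKO against QKO (0 and 4 without QKO replicates 2 and 1), 0 to 2 in Suv39h1/2;Setdb1-TKO and 1 to 2 in G9a;Suv39h1/2-TKO, the latter pair without doxycycline.

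The labels do not tie replicate numbers to a shared day or culture, and not every pair of groups correlated above 0.1, so the samples were not treated as paired. Deviations of same-numbered libraries correlated between -0.06 and 0.62 over the 36 group pairs of the first table (25 above 0.1) and between -0.65 and 0.75 over the 120 of the second (66 above 0.1). Over the constitutive genes alone they ran from 0.009 to 0.829 in the first table (33 of 36 above 0.1) and from -0.801 to 0.968 in the second (56 of 120). With the replicate block, members called went from 1 to 2 in Dux-KO QKO against QKO. The constitutive genes higher at any size went from 7 to 15 in Setdb1-KO and from 14 to 20 in QKO.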
